A study of Mus musculus with 8 samples.

Results

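The 10 genes described here serve protein folding in the endoplasmic reticulum (ER) and the stress signal that follows when folding falls behind, and they were examined in the vomeronasal organ of Tex15 mutant mice. They were chosen by gene symbol as Atf5, Atf4, Ddit3, Eif2ak3, Hspa5, Xbp1, Herpud1, Calr, Calr4 and Pdia4, and all 10 were listed among the 27532 genes of the deposited table and among the 20305 genes tested. The vomeronasal organ is the paired pheromone-sensing organ of the nasal septum, and it was profiled by bulk RNA sequencing of polyadenylated RNA. A group of 4 adult Tex15 heterozygous mice was compared with 4 adult Tex15 knockout mice, and the labels give neither the strain nor the kind of Tex15 mutation. No wild-type animals were analysed here, so every animal carried at least 1 mutant Tex15 allele. Heterozygous replicate 1 was male and the other 3 heterozygous mice were female, whereas knockout replicate 1 was female and the other 3 knockout mice were male. Ages were 11.4 to 14.6 weeks in the heterozygous and 11.9 to 12.1 weeks in the knockout group. The titles of heterozygous replicates 1 and 2 carry lower numbers than those of the other 6 libraries, which are close together, and the titles end in date-like numbers that the labels do not explain, 1 for each of those 2 libraries, 1 for knockout replicate 4 and 1 shared by the other 5, so all knockout libraries belong to the higher-numbered series.

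Newly made receptors and secreted proteins fold in the ER with the help of chaperones such as BiP, the product of Hspa5. When unfolded protein accumulates, BiP leaves the sensors PERK, IRE1 and ATF6. PERK, encoded by Eif2ak3, phosphorylates the translation factor eIF2alpha, which lowers protein synthesis while the messages of Atf4 and Atf5 are translated more. IRE1 splices the Xbp1 message into its active form, and ATF6 and XBP1 raise chaperone and degradation genes. In olfactory sensory neurons this pathway is known to be switched on by receptor expression itself, with PERK and ATF5 relaying the signal that a receptor has been chosen, and ATF5 is needed for vomeronasal neurons to mature. Receptors of the V2R family are known to reach the cell surface poorly when the general calreticulin, Calr, is abundant, and the vomeronasal organ expresses a relative of it, Calr4. Translation of Atf4 and Atf5, splicing of Xbp1 and phosphorylation are not recorded by gene-level RNA abundance.

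The chaperone and degradation genes of the pathway are known to carry ER stress response elements, the sites of ATF6 and XBP1, in their promoters, and the windows of the members that hold one are shown here for this reason. RefSeq windows of 300 bases (250 before and 50 from the transcription start, build GRCm38.p6) were found for all 10 genes, 14 windows in all. The elements searched on both strands were the ER stress response element (CCAAT, then 9 bases of any kind, then CCACG), its second form (ATTGG, then 1 base of any kind, then CCACG), the unfolded protein response element TGACGTGG and the C/EBP-ATF response element TGATGNAA bound by ATF4. The 2 forms of the first element share their end blocks but differ in orientation and spacing. Capitals mark the matches.
Hspa5, chr2:34771840-34772139, plus strand: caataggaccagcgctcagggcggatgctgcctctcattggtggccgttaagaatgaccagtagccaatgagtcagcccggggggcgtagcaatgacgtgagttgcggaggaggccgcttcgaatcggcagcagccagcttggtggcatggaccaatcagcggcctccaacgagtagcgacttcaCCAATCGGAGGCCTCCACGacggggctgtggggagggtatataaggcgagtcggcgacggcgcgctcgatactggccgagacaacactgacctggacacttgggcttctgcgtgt
Calr, chr8:84846882-84847181, minus strand: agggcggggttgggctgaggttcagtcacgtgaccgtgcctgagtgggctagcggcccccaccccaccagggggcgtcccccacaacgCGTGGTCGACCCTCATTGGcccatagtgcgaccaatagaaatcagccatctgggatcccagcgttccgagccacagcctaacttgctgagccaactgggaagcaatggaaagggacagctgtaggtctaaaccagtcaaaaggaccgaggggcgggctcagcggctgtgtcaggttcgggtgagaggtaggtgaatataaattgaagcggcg
Calr4, chr4:109218163-109218462, plus strand: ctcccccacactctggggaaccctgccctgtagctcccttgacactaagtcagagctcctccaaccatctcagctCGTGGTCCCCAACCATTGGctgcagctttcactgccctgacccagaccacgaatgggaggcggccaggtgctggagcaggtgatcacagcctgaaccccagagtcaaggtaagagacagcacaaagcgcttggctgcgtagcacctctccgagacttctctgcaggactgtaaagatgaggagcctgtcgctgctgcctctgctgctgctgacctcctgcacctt
Herpud1, chr8:94386179-94386478, plus strand: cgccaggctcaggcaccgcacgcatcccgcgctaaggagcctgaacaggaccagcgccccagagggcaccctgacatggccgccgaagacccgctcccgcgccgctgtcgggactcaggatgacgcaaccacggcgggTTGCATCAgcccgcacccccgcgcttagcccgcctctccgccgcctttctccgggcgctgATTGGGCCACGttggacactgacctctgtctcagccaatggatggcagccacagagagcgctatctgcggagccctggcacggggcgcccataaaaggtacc
The match in Hspa5 ends 47 bases before the RefSeq start, and those in Calr and Calr4 lie on the opposite strand and end 144 and 157 bases before it. The RefSeq start of Hspa5 is 120 bases downstream of the GENCODE start, so its match lies inside the gene as annotated by GENCODE. The Calr4 window belongs to a RefSeq start 16072 bases upstream of the GENCODE start of the gene, and the 3 other windows of Calr4 held no match to these 4 elements. Herpud1 held the second form, ending 42 bases before the start, and a C/EBP-ATF response element on the opposite strand ending 105 bases before it. The ER stress response element was present in 3 of the 10 members and in 7 of 71 other pathway genes with a window (Canx, Creld2, Derl3, Dnajc3, Hsp90b1, Pdia6 and Syvn1), against 0.137% of all 27025 genes with a window. The second form was found in 1 member, 1 of the 71 pathway genes (Dnajb11) and 0.0444% of all genes. The unfolded protein response element was found in 0 members, 5 of the 71 (Sec23a, Sec24d, Txndc5, Ube2j1 and Vcp) and 0.714% of all genes. The C/EBP-ATF response element was found in 1 member, 9 of the 71, among them Asns, Chac1 and Trib3, and 4.51% of all genes. These matches describe the letters in the windows and do not show binding.

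Values are TPM, transcript abundances scaled by gene length to a common sum per library, as deposited by the authors. Between 17884115 and 26415664 reads per library were recovered from the TPM steps, and the members held between 494 (Ddit3, knockout replicate 1) and 26790 reads (Hspa5, heterozygous replicate 1), so counting error was small beside the spread between animals. For Tex15 itself the heterozygous mean was 2.52 ± 0.279 TPM and the knockout mean 1.09 ± 0.155 TPM (SD, n = 4), without overlap, and limma gave a log2 fold change of −1.22 against the median gene (SE 0.38, adjusted p = 0.794, not past the threshold). The G protein subunits Gnai2 and Gnao1, which mark apical and basal vomeronasal neurons, were present in every library, at 114 to 302 and 11.5 to 30.7 TPM. Omp, the olfactory marker protein of mature neurons, set 1 library apart, with 66.6 TPM in heterozygous replicate 1 against 571 to 943 TPM in the other 7. The sum of Gnai2 and Gnao1 in that library, 193 TPM, was above that of heterozygous replicate 2, 125 TPM. The sum of 7 listed mature vomeronasal neuron markers, of which Omp, Gnai2 and Gnao1 are 3, was lowest in the same library, at 412 TPM against 910 to 1465 TPM. Without Omp the sum of the other 6 was 345 TPM there, within the 285 to 522 TPM of the other libraries. The labels name no Omp allele in any animal, and whether this one carried such an allele was not tested. Because sexes were unequally split, that library and knockout replicate 1 each entered the genotype estimate with weight 0.5, against 0.167 for each of the remaining 6.

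None of the 10 genes differed between genotypes past the threshold. With limma on log2(TPM + 0.5) and sex as a term, 119 of 20305 genes (0.586%) passed an adjusted p of 0.05. Of these, 43 (0.212%) had higher levels and 76 (0.374%) lower levels in the knockouts, and 0 of the members were among them. At an unadjusted p under 0.05 there were also 0 members, against 3.10% of all tested genes. Without heterozygous replicate 4 the balance of called genes became 126 higher and 128 lower. Without knockout replicate 1, the only knockout female, the fit rests on heterozygous replicate 1 alone against the knockout males, so its balance is not given. The heterozygous and knockout values overlapped in all 10, while groups did not overlap in 1.40% of all genes. Each member had a limma adjusted p of at least 0.9995. Fold changes are given relative to the median tested gene, which itself was 0.19 higher in knockout on the log2 scale. Among the members they ran from −0.40 for Ddit3 to 0.21 for Pdia4, with a median of −0.10 against 0 for all tested genes, and 3 lay above and 7 below the median gene. Heterozygous replicate 1, the library with low Omp, was also the only heterozygous male. Without it the sex term left knockout replicate 1 alone against the heterozygous females, so that fit rests on 1 knockout mouse. There Calr stood at 0.25 (SE 0.48), Atf4 at 0.06 (SE 0.50) and Pdia4 at 0.07 (SE 0.52). Within the higher-numbered series, fitted with no sex term, 0 members were called, against 0.894% of all genes.

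**Figure D1:**
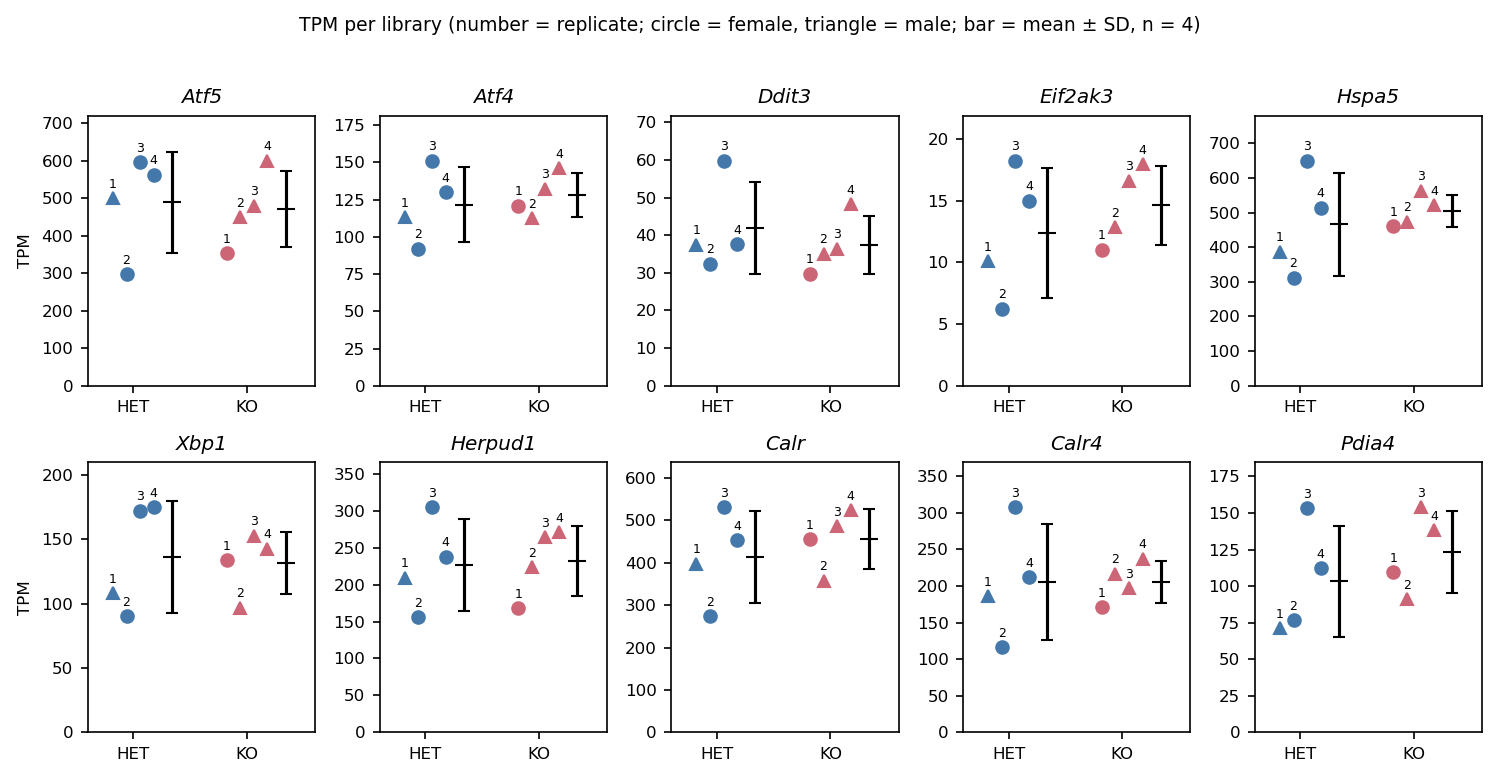
TPM of each of the 10 genes (vertical axis, starting at 0) in the 4 heterozygous (HET) and 4 knockout (KO) libraries. Each symbol is 1 mouse, numbered by replicate, and the black bar is the mean ± SD (n = 4). The groups overlap in all 10 genes, and heterozygous replicate 2 is the lowest library for 8 of them.

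The stress branch was led by Eif2ak3, which encodes the sensor kinase PERK. Its level was 10.1, 6.23, 18.2 and 15.0 TPM in heterozygous replicates 1 to 4 and 11.02, 12.9, 16.6 and 18.0 TPM in knockout replicates 1 to 4. All 4 knockout values lay inside the range set by heterozygous replicates 2 and 3. The log2 fold change was 0.05 (SE 0.41, 95% interval −0.81 to 0.91) in limma.

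Atf4 encodes the transcription factor whose translation PERK favours. It stood at 113, 91.9, 151 and 130.1 TPM in heterozygous and at 121, 112, 132 and 146 TPM in knockout replicates 1 to 4. Again the knockout libraries lay within the heterozygous range, with a log2 fold change of −0.10 (SE 0.32, 95% interval −0.77 to 0.56).

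Atf5, the factor that carries the receptor signal in olfactory neurons, was among the most abundant messages of the organ. It was measured at 500.1, 297, 597 and 563 TPM in heterozygous replicates 1 to 4. Knockout replicates 1 to 4 had 354, 449.7, 480.1 and 600.4 TPM. The lowest value belonged to heterozygous replicate 2 and the highest to knockout replicate 4. The ranges overlapped, at 297 to 597 TPM in heterozygous and 354 to 600.4 TPM in knockout libraries. The log2 fold change was −0.38 (SE 0.33, 95% interval −1.07 to 0.31). By mean TPM over the 8 libraries Atf5 ranked 193rd of 20305 genes, and within single libraries between 130 and 261.

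Ddit3 encodes CHOP, which is induced late in unresolved stress and can promote cell death. Its values were 37.4, 32.4, 59.8 and 37.6 TPM in heterozygous and 29.8, 35.1, 36.4 and 48.2 TPM in knockout replicates 1 to 4. Heterozygous replicate 3 stood highest and knockout replicate 1 lowest, with the other 6 libraries between 32.4 and 48.2 TPM. The log2 fold change of −0.40 (SE 0.35, 95% interval −1.12 to 0.33) was the most negative of the 10.

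Hspa5, the message of the chaperone BiP, had the highest mean of the members. It stood at 387, 312, 649.7 and 514 TPM in heterozygous and at 461, 473, 564 and 521 TPM in knockout replicates 1 to 4. The knockout libraries were close together, at 505 ± 47.0 TPM, whereas the heterozygous ones were spread more widely, at 466 ± 148 TPM (SD, n = 4). The fold change of Hspa5 was 0.0014 on the log2 scale (SE 0.33, 95% interval −0.68 to 0.69). Pdia4, a disulfide isomerase that forms and rearranges disulfide bonds, had 71.1, 76.8, 153 and 112 TPM in heterozygous libraries. In knockout libraries it had 109.7, 91.3, 154 and 138 TPM. Its log2 fold change of 0.21 (SE 0.35, 95% interval −0.53 to 0.95) was the highest of the 10, with both lowest values in heterozygous replicates 1 and 2.

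Calreticulin binds the sugar chains of folding glycoproteins and calcium in the ER. Calr was measured at 398, 274, 531 and 454 TPM in heterozygous and at 456, 358, 486 and 524 TPM in knockout replicates 1 to 4. Calr4 was measured at 186, 117, 307 and 212 TPM and at 171, 217, 197 and 237 TPM. For both genes heterozygous replicates 2 and 3 were the lowest and highest of all 8 libraries. The log2 fold changes were −0.02 for Calr (SE 0.33, 95% interval −0.70 to 0.66) and −0.19 for Calr4 (SE 0.35, 95% interval −0.92 to 0.55). The sum of all V2R messages, the receptors whose surface expression calreticulins are known to affect, had a heterozygous mean of 950.1 ± 379 TPM and a knockout mean of 742 ± 139.7 TPM (SD, n = 4), with overlap.

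Xbp1 encodes the factor activated by IRE1, and Herpud1 a membrane protein of ER-associated degradation, the removal of misfolded proteins. Xbp1 stood at 108, 90.4, 172 and 175 TPM in heterozygous and at 134, 96.8, 153 and 143 TPM in knockout replicates 1 to 4, and its log2 fold change was −0.10 (SE 0.34, 95% interval −0.82 to 0.61). Herpud1 stood at 209, 156, 304 and 238 TPM and at 168, 224, 264 and 270.6 TPM, and its fold change was −0.27 on the log2 scale (SE 0.33, 95% interval −0.96 to 0.42). Both genes had their knockout values inside the heterozygous range. Antibody-secreting plasma cells are known to rely on XBP1, and the 8 plasma cell markers (all listed, none at 0) summed to 929 to 3924 TPM in heterozygous and 1108 to 2298 TPM in knockout libraries. The sum was highest in heterozygous replicates 3 and 4, the libraries with the highest Xbp1, and the part of these cells in the Xbp1 level was not tested.

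The order of the levels, per length, was Hspa5, Atf5, Calr, Herpud1, Calr4, Xbp1, Atf4, Pdia4, Ddit3 and Eif2ak3, from 485 ± 104 to 13.5 ± 4.23 TPM (SD over 8 libraries). Some neighbours in this order could not be separated. Hspa5 exceeded Atf5 in 5 of 8 libraries, Atf5 exceeded Calr in 6, Herpud1 exceeded Calr4 in 6, Xbp1 exceeded Atf4 in 4 and Atf4 exceeded Pdia4 in 6. Calr exceeded Herpud1, Calr4 exceeded Xbp1, Pdia4 exceeded Ddit3 and Ddit3 exceeded Eif2ak3 in all 8 libraries, the last 2 pairs without overlapping ranges.

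Ratios between members of a library do not depend on how the library was scaled, and 3 of them were tested by exact permutation (two-sided, 70 ways to assign the libraries, smallest possible p 0.0286, adjusted over the 3). The ratio of Calr4 to Calr averaged 0.485 ± 0.0658 in the heterozygous group against 0.459 ± 0.103 in the knockouts (SD, n = 4; exact p = 0.571, adjusted 0.571). Knockout replicate 2 had the highest ratio, 0.605, and knockout replicate 1 the lowest, 0.374. Atf5 stood at 3.98 ± 0.536 times Atf4 in the heterozygous group and at 3.66 ± 0.536 times in the knockouts (exact permutation p = 0.486, adjusted 0.571). The ratio of Ddit3 to Hspa5, the late stress factor against the chaperone, was 0.0914 ± 0.0131 and 0.0740 ± 0.0132. On the log2 scale this is −0.31, with an exact permutation p of 0.143 and 0.429 after adjustment. Among the 4 knockout ratios of Ddit3 to Hspa5, 2 lay below every heterozygous one and 0 above. With 3 ratios adjusted together, a change in 1 of them alone could not bring its adjusted p below 0.0857, so these tests could not have called a single changed ratio.

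The members varied between animals, and most were low or high in the same libraries. Heterozygous replicate 2 was the lowest library for 8 of the 10 genes and heterozygous replicate 3 the highest for 7. This was not particular to the members. The size factor of a library is the median ratio of its genes to their geometric means, over genes above 0 in all 8 libraries. It was also lowest in heterozygous replicate 2, at 0.666, and highest in heterozygous replicate 3, at 1.39. Between its lowest and highest library a gene changed from 1.64-fold (Atf4) to 2.93-fold (Eif2ak3). The summed TPM of the 10 ran from 1454 in heterozygous replicate 2 to 2944 in heterozygous replicate 3. The sum of Gnai2 and Gnao1 was lowest and highest in the same libraries, at 125 and 333 TPM. Heterozygous replicate 2 also had the highest sums of main olfactory neuron markers (226 TPM against 55.7 to 130.3 TPM in the other 7 libraries, 6 of 6 markers listed and none at 0) and of erythrocyte markers (20930 TPM against 3900.3 to 14334 TPM, 5 of 5 listed and none at 0). Its sustentacular markers were highest too (9433 TPM against 4105 to 7609 TPM). Its sums were the lowest for gland and secretory markers (90419 TPM), immature neuron markers (133 TPM), progenitor markers (86.1 TPM) and cartilage and bone markers (1060.4 TPM). This animal was also the oldest, at 14.6 weeks. The sum of main olfactory neuron markers also separated the genotypes, with 74.9 to 226 TPM in heterozygous against 55.7 to 69.7 TPM in knockout libraries. Of its 6 markers 1 did so by itself, against 1.40% of all genes, and 1 was at an unadjusted limma p under 0.05, against 3.10%. Cnga4 is on this list and on that of mature vomeronasal neuron markers. Of the main olfactory neuron markers 6 of 6 lay below the median gene (median −0.74 on the log2 scale). Of the sustentacular markers 6 of 6 lay below it as well (median −0.51), with sums that overlapped between genotypes, and 0 genes of either list were called. Other lists lay on the other side: 5 of 5 cartilage and bone markers (median 0.34, 2 at an unadjusted limma p under 0.05), 5 of 5 erythrocyte markers (0.40) and 5 of 6 progenitor markers (0.41) were above the median gene, with 0 called and sums that overlapped. The part of these cells in the genotype values of the members, and of these cells or of age in the low values of heterozygous replicate 2, was not tested, and in bulk tissue fewer neurons and less message per neuron cannot be told apart. The SD was larger in the heterozygous than in the knockout group for all 10 genes, a difference that was not tested. The size factor, which is not particular to the members, also had the larger SD in the heterozygous group, 0.332 against 0.214.

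**Figure D2:**
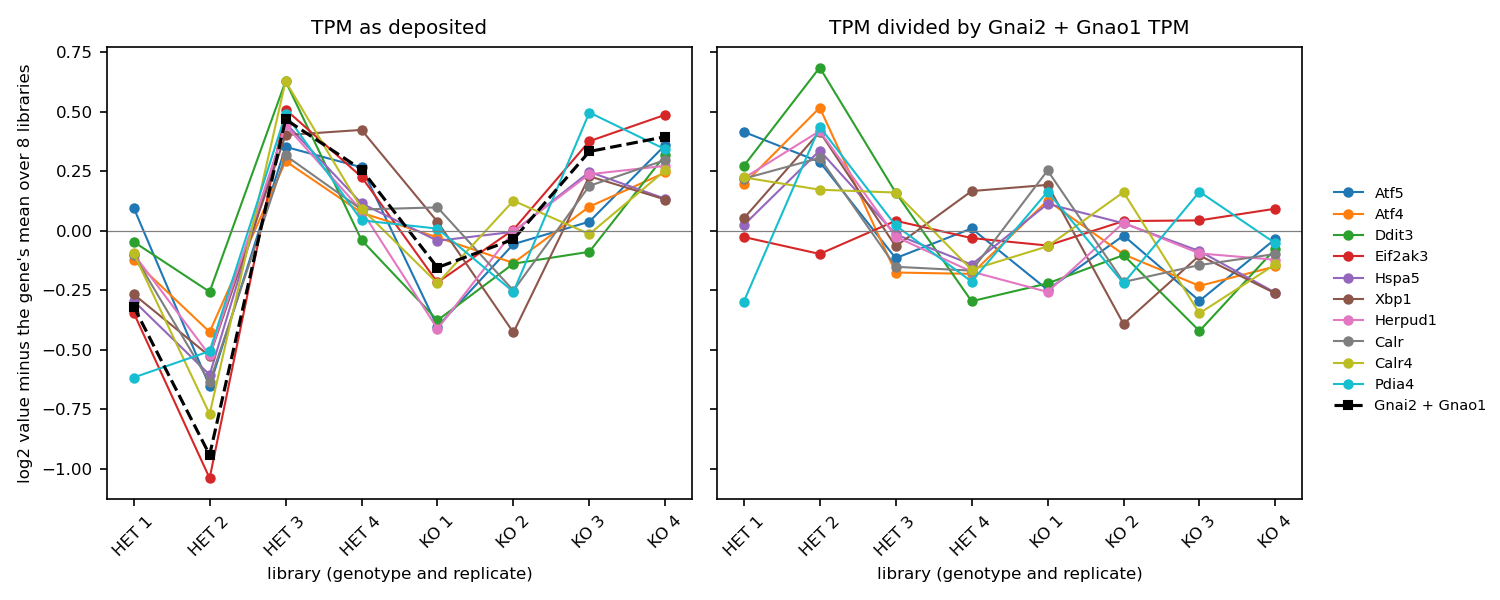
Left, log2 TPM of each gene minus its mean over the 8 libraries (vertical axis) in each library, with the summed TPM of Gnai2 and Gnao1 dashed in black. Right, the same after dividing by that sum. Lines only join the points of a gene. On the left most genes are low in heterozygous replicate 2 and high in replicate 3, and on the right Eif2ak3 stays near 0 in all 8 libraries.

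Dividing by the sum of Gnai2 and Gnao1 set the members against 2 messages of the sensory neurons. The sum was mostly Gnai2, the marker of apical neurons. Its mean was 214 TPM in the heterozygous and 248 TPM in the knockout group, against 20.8 and 19.7 TPM for Gnao1. The coefficient of variation over the 8 libraries fell for 8 of the 10 genes, and the median over the members went from 23.7% to 17.0%, against 33.0% and 25.5% for all tested genes. Eif2ak3 moved most, from 31.4% to 4.44%. It stood at 5.23% ± 0.206 of the sum of Gnai2 and Gnao1 in the heterozygous group and at 5.44% ± 0.242 in the knockouts (SD, n = 4). Only 11 of 20305 tested genes, Eif2ak3 included, had so small a variation after this division, a property that was noticed after the values had been seen. Gnai2, most of the sum, varies little after this division by construction. The small variation of Eif2ak3 depended on the scaling: after the median-ratio scaling described next, Eif2ak3 varied by 13.2%, and 24.0% of tested genes varied as little or less. For Atf5 the level was 218% ± 36.8 and 176% ± 17.3 of that sum, and for Calr4 88.9% ± 10.3 and 77.8% ± 11.4, in both cases with overlap. After this scaling all 10 members still overlapped between genotypes, while 2.85% of all tested genes did not, and 0 members were called, against 0.749% of all genes.

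A second scaling, by the median ratio of each library to the gene-wise geometric mean, reduced the variation of all 10 members, to a median of 13.0%, and narrowed the intervals. Over all tested genes the median variation fell as well, from 33.0% to 21.1%. For Hspa5 the log2 fold change was then −0.03 (SE 0.18, 95% interval −0.45 to 0.39), for Xbp1 −0.13 (SE 0.15, −0.49 to 0.22), for Calr −0.05 (SE 0.18, −0.47 to 0.37) and for Eif2ak3 0.03 (SE 0.16, −0.33 to 0.40). The fit to TPM as deposited without heterozygous replicate 1 rests on knockout replicate 1 alone against the heterozygous females. Its intervals were wider, reaching from −0.93 to 1.02 for Hspa5, −1.05 to 1.06 for Xbp1, −0.74 to 1.23 for Calr and −1.28 to 1.19 for Eif2ak3. With all 8 libraries and median-ratio scaling, the lowest values were those of Ddit3 at −0.42 (SE 0.17, limma unadjusted p = 0.0315, adjusted 0.827) and Atf5 at −0.41 (SE 0.18, limma unadjusted p = 0.0443, adjusted 0.898). These were 2 of 10 members at an unadjusted p under 0.05, against 5.42% of all tested genes, and neither was past the threshold, which 0.763% of all genes passed in this fit. With limma-voom on the recovered reads 3 members (Atf5, Ddit3 and Herpud1) were at an unadjusted p under 0.05, against 4.80% of all genes, and 0 were called, against 0.796%. Within the higher-numbered series without a sex term the values relative to the median gene were −0.17 for Ddit3 and −0.13 for Atf5. The median gene itself stood at −0.19 there. Before it was subtracted the values were −0.36 and −0.32, and to these belong the limma unadjusted p-values of 0.222 and 0.243.

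**Figure D3:**
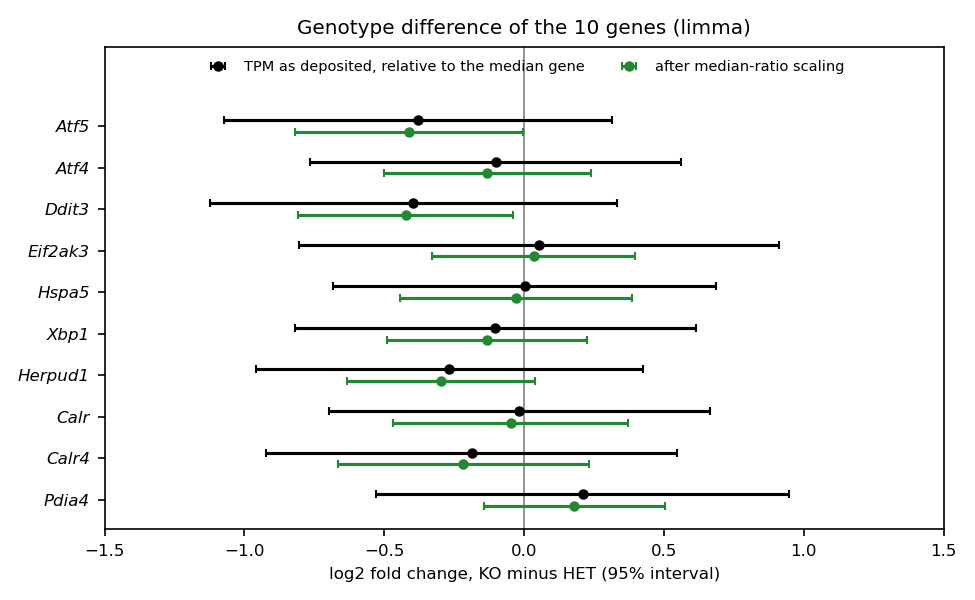
Log2 fold change of each gene, knockout minus heterozygous (horizontal axis), with 95% intervals from limma, for TPM as deposited relative to the median gene (black) and after median-ratio scaling (green). All 10 black intervals include 0. Among the green ones those of Ddit3 and Atf5 end just below 0, and neither gene passed adjustment over all genes.

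Comparing animals of the same sex left 1 library in 1 of the groups each time. With the sex term kept, the fit without heterozygous replicate 1 rests on the female contrast. The fit without knockout replicate 1 rests on the male contrast. Between the females, knockout replicate 1 against heterozygous replicates 2 to 4, the difference in log2(TPM + 0.5) as deposited was −0.48 for Ddit3, −0.41 for Herpud1 and −0.39 for Atf5. Between the males, heterozygous replicate 1 against knockout replicates 2 to 4, these were 0.08, 0.27 and 0.02. The median tested gene itself stood at −0.07 between the females and 0.46 between the males, so these differences include a shift common to the genes. Relative to it, females first, Ddit3 was at −0.41 and −0.385, Herpud1 at −0.34 and −0.19 and Atf5 at −0.32 and −0.44. As deposited, Pdia4 stood at −0.00041 between females and 0.81 between males, and Eif2ak3 at −0.12 and 0.61. Relative to the median gene Pdia4 stood at 0.07 and 0.35, and Eif2ak3 at −0.05 and 0.15. The difference between the sexes in these contrasts was not tested, and heterozygous replicate 1, the library with low Omp, was the only control among the males.

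The wider pathway was examined with 6 fixed lists holding 90 other genes, all of which were listed and tested. By limma 0 of the 90 were called, against 0.586% of all tested genes, so that a count of 0 is near the background. At an unadjusted p under 0.05 there were 0, against 3.10%. Set against the median gene their own median was 0.05 on the log2 scale, with 50 genes above and 40 below the median gene and 0 without overlap between groups, against 1.40% of all tested genes. Limma-voom on the recovered reads called 0 of the 90 and put 1 at an unadjusted p under 0.05, where 0.796% of all genes were called and 4.80% had such a p. List medians were −0.05 for the other eIF2alpha kinases, eIF2alpha and its phosphatase subunits (6 genes), −0.0096 for targets of ATF4 and CHOP (20), 0.14 for the IRE1 and ATF6 sensors and their partners (10), 0.03 for other ER chaperones and folding enzymes (20), 0.11 for ER-associated degradation (13) and 0.0078 for translocation into and export from the ER (21).

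**Figure D4:**
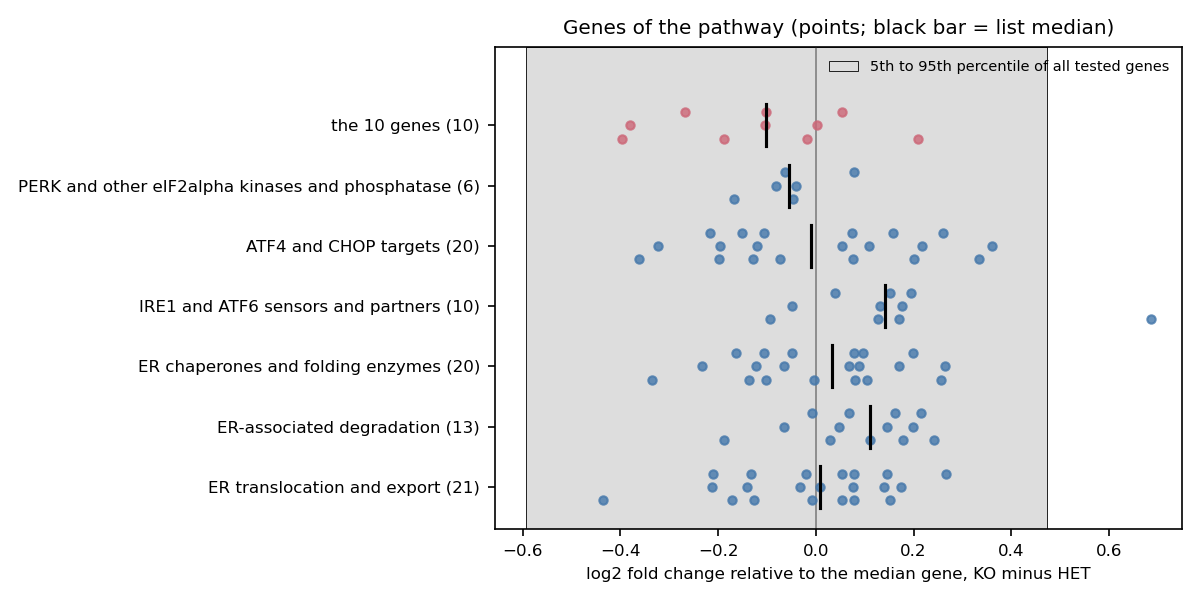
Log2 fold change, knockout minus heterozygous, less that of the median gene (horizontal axis), for the 10 genes (red) and for the genes of 6 pathway lists (blue, number of genes in brackets), with list medians as black bars. The grey band from −0.59 to 0.47 holds the 5th to 95th percentile of all tested genes. All points lie inside the band except Ern2 at 0.69.

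The pathway gene with the highest fold change was Ern2, a form of IRE1 found in mucous epithelia, with a heterozygous mean of 3.59 ± 2.23 TPM and a knockout mean of 6.26 ± 3.65 TPM (SD, n = 4). Its log2 fold change was 0.69 (SE 0.54). Stc2, a secreted glycoprotein induced by ATF4, followed at 0.36 (SE 0.44) and Psat1, an enzyme of serine synthesis, at 0.33 (SE 0.38). The lowest were Reep6 at −0.43 (SE 0.42), Chac1, a glutathione-degrading target of ATF4 and CHOP, at −0.36 (SE 0.38) and Calr3, the third calreticulin, at −0.34 (SE 0.39). The level of Calr3, 5.18 ± 1.06 TPM against 4.48 ± 0.915 TPM (SD, n = 4), was far below those of Calr and Calr4 in both genotypes. None of these 6 genes was past the threshold in limma, each with an adjusted p of 0.9995.

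For 3 members the tested genes with the most similar profile over the 8 libraries were listed by Pearson correlation of log2(TPM + 0.5), as a description over libraries among which neuronal messages varied together. For Atf5 they were Dlx4os (r = 0.993), Uchl1 (0.988), an abundant neuronal deubiquitinase, and Elavl3 (0.988), a neuronal RNA-binding protein. For Hspa5 they were Stk32c (r = 0.996), the kinase gene Pak1 (0.994) and Stx12 (0.994). For Calr4 they were Prelid3a (r = 0.987), the calcium channel subunit gene Cacnb4 (0.984) and Gm37308 (0.980).

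The 10 genes lie on 8 chromosomes of build GRCm38, on the annotation of GENCODE M21. Atf5 (ENSMUSG00000038539) spans chr7:44812256-44816658, Atf4 (ENSMUSG00000042406) chr15:80255184-80257541, Ddit3 (ENSMUSG00000025408) chr10:127290774-127296288, Xbp1 (ENSMUSG00000020484) chr11:5520659-5525893 and Herpud1 (ENSMUSG00000031770) chr8:94386438-94395377. Calr (ENSMUSG00000003814) spans chr8:84841850-84846934, Pdia4 (ENSMUSG00000025823) chr6:47796141-47813430, Hspa5 (ENSMUSG00000026864) chr2:34771970-34777547, Eif2ak3 (ENSMUSG00000031668) chr6:70844515-70905245 and Calr4 (ENSMUSG00000028558) chr4:109234485-109254571. Atf4, Xbp1, Herpud1, Calr and Pdia4 shared 0 of their 75-base transcript windows with annotated transcripts of other genes, as did Hspa5 and Calr4. Atf5 shared 0.553% of its windows with Il4i1 or Nup62, which overlap it on the opposite strand, and Eif2ak3 4.47% with Gm43292, which was at 0.268 TPM or less. Whether counting used the strand is not given in the sources used here, so reads from these overlaps cannot be told apart. The same holds for 68 bases of Ddit3 exons (3.97%) that overlap Mars on the opposite strand. A second annotated Ddit3 gene, not listed in the table, shares 105 exon bases (6.13%) with Ddit3 on the same strand and 1.81% of its 75-base windows, and how reads there were assigned is not given in the sources used here.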

How the data were processed

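RNA of the vomeronasal organ of 8 mice was sequenced as paired reads from strand-specific poly(A) libraries, per the labels' protocols. The authors deposited TPM values, 1 column per library. The submitters' processing notes name Trim Galore 0.6.5, cutadapt 5.1, STAR 2.7.11b, deepTools 3.5.5 and the builds mm10 and GRCm38. The counting program and the annotation are not given in the sources used here. Of the sample columns 0 were left unused.

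A gene was tested where its average reached 0.5 TPM (20305 genes). Values on the log2(TPM + 0.5) scale were fitted by limma 3.58.1, run in R 4.3.3 (eBayes with a trend, genotype and sex as terms), with Benjamini-Hochberg adjustment over all genes tested and calls at an adjusted p under 0.05. Tested on simulated data, the fit returned the fold changes put in but called only a minority of them, so a gene that is not called may still differ. Fold changes are relative to the median gene and understate the change of low genes. P-values belong to the fitted coefficient before that median was subtracted. Whether replicates are separate litters is not stated, so p-values measure the spread between these animals. Reads were recovered by dividing TPM times exon length by the worth of 1 read. Between 97.9% and 98.4% of low values fell within 0.05 of a whole read, for 26729 of 27532 genes, and intervals on such reads would cover counting error only.

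Named genes are the 10 members, the 3 largest rises and 3 largest falls among the pathway genes, the 3 genes most similar to Atf5, Hspa5 and Calr4, and any called pathway gene (0). The members, lists and tests were chosen with earlier results of these data known. Marker lists were summed per library. Alternatives were other pseudocounts, filters, scalings, designs and variance estimates, and leaving out each library. Limma-voom on recovered reads was added after the data had been seen. Tests over single ratios used SciPy 1.17.1.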

Additional observations from a re-analysis of the deposited data

How the results depend on the processing

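Of 190 combinations of a member with an alternative setting (10 members, 19 settings), 0 were past the threshold and 5 were at an unadjusted p under 0.05, where between 2.54% and 5.83% of all tested genes had such a p. The number of members called was 0 under every setting, and so was the number of the 90 pathway genes called, which is near the background, since between 0.262% and 1.25% of all tested genes were called. Atf5, Ddit3, Herpud1, Calr4 and Pdia4 kept their direction under all 19 settings, with limma log2 fold changes from −0.44 to −0.13, −0.45 to −0.17, −0.34 to −0.05, −0.26 to −0.08 and 0.07 to 0.35. The robust variance and the replicate block left the main fold changes as they were, so these settings could not reverse a direction. Without heterozygous replicate 1 or knockout replicate 1 the estimate rested on 1 library in 1 group. The directions of the other 5 members, whose values lay near 0, reversed in places. The cause was not tested. Hspa5 went to −0.021 with a pseudocount of 0.1, −0.0091 with a minimum mean of 2 TPM, −0.0292 with median-ratio scaling, −0.0379 scaled to Gnai2 and Gnao1, −0.0086 within the higher-numbered series and −0.0268 with limma-voom. Calr went to 0.0022 with a pseudocount of 1, 0.0264 with no filter, 0.0161 with no sex term and 0.0717 within the higher-numbered series, where Atf4 stood at 0.0534 and Eif2ak3 at −0.0067. With each library left out in turn the ranges were −0.0428 to 0.0515 for Hspa5, −0.28 to 0.25 for Calr, −0.27 to 0.0618 for Atf4, −0.0468 to 0.15 for Eif2ak3 and −0.22 to 0.0089 for Xbp1.

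The number of all genes called moved from 119 to 72 with no filter and to 184 within the higher-numbered series, and ranged from 83 (without heterozygous replicate 1) to 254 (without heterozygous replicate 4) when a library was left out, with 202 without heterozygous replicate 2 and 190 without knockout replicate 4. Median-ratio scaling called 155, of which 28 were higher and 127 lower. Leaving out 1 library moved the log2 differences of the ratios within −0.24 to −0.0030 (Calr4 to Calr), −0.22 to −0.02 (Atf5 to Atf4) and −0.42 to −0.24 (Ddit3 to Hspa5). Within the higher-numbered series these were −0.20, −0.19 and −0.17, against −0.09, −0.12 and −0.31 with all libraries. Their p-values say nothing of stability, since the test on 3 ratios could not call a single changed ratio. The groups share replicate numbers in the labels, but same-numbered libraries deviated together with correlations of only −0.06, 0.03, 0.10 and −0.00012, so the numbers were not taken as pairs. With the replicate number as a block 128 genes were called instead of 119. Each member held at least 494 reads per library.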
